A study of Mus musculus with 11 samples.

Results

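Oxidative phosphorylation is carried out in the inner mitochondrial membrane by enzyme complexes whose subunits are mostly encoded in the nucleus. The transcripts described here are those nuclear subunit mRNAs, measured as fragments recovered with FMRP, an RNA-binding protein whose loss causes Fragile X syndrome. A row of the deposited table was taken when its symbol began with Nduf and a subunit letter and digit, with Uqcr, with Cox4 to Cox8, or with Atp5, and pseudogene names and Ndufaf assembly factors were left out. The rule found 78 of 30986 rows. No measured value entered the rule itself, but the group was chosen with earlier results of these data known. By known function 35 rows encode subunits of complex I, 8 of complex III, 16 of complex IV and 15 of complex V, the ATP synthase. A further 4 rows (Atp5s, Atp5sl, Ndufa4l2 and Cox7a2l) carry such names without encoding a core subunit and are given apart. Ndufa4 was counted with complex IV, to which its protein belongs. None of the 13 mRNAs encoded in mitochondrial DNA had a row under its usual symbol, so these transcripts were not analysed here.

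Complexes I to IV pass electrons from NADH and succinate to oxygen. Complexes I, III and IV pump protons across the membrane, and complex V uses the returning protons to make ATP. Neurons depend on this pathway for the energy of ion pumping and synaptic transmission. FMRP binds long brain mRNAs, many of them for synaptic proteins, and restrains their translation, while mRNAs for respiratory subunits are short.

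Mouse brain regions of postnatal day 13 were crosslinked with ultraviolet light, FMRP was immunoprecipitated, and the attached RNA was counted per gene in 11 libraries: 2 of cerebellum, 3 of cortex, 5 of hippocampus and 1 whose title names cortex while its tissue label names hippocampus. All groups share the age, the crosslinking and the antibody step, and strain, genotype, sex and the number of animals per library are not given in the labels. Nothing in the labels ties the libraries of 1 region to separate animals, so every p-value reflects the spread of these libraries alone, which may be technical. The library with conflicting labels entered no comparison. Hippocampus 1 and hippocampus 2 showed no detectable difference beyond sampling noise (over 1873 rows the chi-square divided by its degrees of freedom was 1.03, with p = 0.192) and were summed as 1 sample, hippocampus 1+2, while all other pairs of a region gave 1.49 to 8.62. This left 9 samples: 2 of cerebellum, 3 of cortex and 4 of hippocampus. Cortex and hippocampus together are called forebrain.

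Depth was low and uneven. Totals ran from 11898 counts in cortex 3 to 197382 in cerebellum 2, so 1 count was worth 84.05 CPM (counts in every 1000000 of the library) in the shallowest sample and 5.066 in the deepest. Where no count was found, up to 3 could have been missed, equal to 252.1 CPM in cortex 3 and to 15.2 CPM in cerebellum 2. Cortex 3, hippocampus 3 and hippocampus 4 stood apart from the other samples in their content: rows with predicted gene names took 12.51%, 12.58% and 12.22% of their counts, against 3.114% to 7.499% in the other 6. Summed levels of 43 mRNAs known to be bound by FMRP were 31098, 21761 and 33996 CPM in those 3 samples and 46706 to 87399 CPM in the other 6. The 9 markers of cerebellar granule cells, checked against the region labels, summed to 7375 and 5897 CPM in cerebellum and 260 to 882 CPM in forebrain. No input library and no library lacking FMRP was analysed here, so a level of fragments cannot separate the amount of an RNA from its binding. In bulk tissue, fewer cells of a type and less RNA per cell cannot be told apart either.

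The 78 rows held 1002 of 712686 counts, or 0.1406%. Their median total over the 11 libraries was 8 counts, equal to the median of 8 over all rows. Counts were concentrated in a few genes: Atp5b and Atp5a1 together held 206 counts, or 20.56% of the total, and the 12 genes of largest count held 478, or 47.7%. At the other end 45 rows had fewer than 10 counts in all 11 libraries together, 4 of them a single count. The largest count of any member in any library was 30. Complex V held 396 counts (39.52%), complex I 318 (31.74%), complex IV 152 (15.17%), complex III 105 (10.48%) and the 4 rows that are not core subunits 31 (3.094%). Complex V thus took the largest share with 15 rows against 35 in complex I, and its median total per row was 17 counts against 8 for complex I, 8.5 for complex III and 7 for complex IV.

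Summed over the 78 rows, respiratory mRNAs were a small share of the fragments in every sample, with cortex 2 highest on library totals. The sum was 1184 and 1398 CPM in the cerebellum samples. In the cortex samples it was 1530, 2420 and 1009 CPM. In the hippocampus samples it was 1266, 1338, 1185 and 1626 CPM. On library totals cortex 2 was the highest and cortex 3 the lowest of all 9 samples, 2.398-fold apart, so the range of cortex enclosed both other regions. On library sizes corrected with the TMM factors of edgeR, hippocampus 3 was the highest at 2077 CPM, followed by cortex 2 at 1942, and cortex 3 remained the lowest at 1036. Without cortex 2 the highest sample was 1.611-fold above the lowest. The exact Clopper-Pearson 95% intervals take every count as a separate molecule and leave out the spread between samples. PCR copies of a fragment are not separate molecules, so the intervals may be too narrow even for counting error. They ran from 2029 to 2864 CPM in cortex 2 and from 521.2 to 1761 CPM in cortex 3. Of the other 8 samples, 6 had intervals that ended below that of cortex 2, and 2 had intervals that overlapped it.

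**Figure D1:**
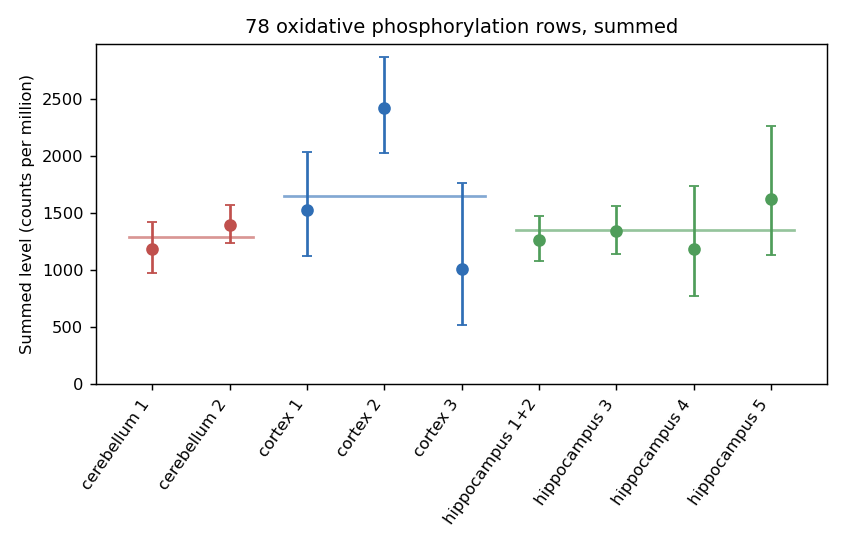
Summed level of the 78 oxidative phosphorylation rows in CPM (vertical axis) in each of the 9 samples (horizontal axis), with points for samples, bars for exact 95% intervals and horizontal lines for region means. On this scale of library totals, cortex 2 at 2420 CPM lies above the other samples, which run from 1009 to 1626 CPM.

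The cerebellum mean was 1291 ± 151.7 CPM (SD, n = 2), the cortex mean 1653 ± 713.7 (n = 3) and the hippocampus mean 1354 ± 191.8 (n = 4). The order cortex, hippocampus, cerebellum was within the spread, since each neighbouring pair of means differed by less than the SD of cortex. It also depended on the scale. With the TMM factors, the cerebellum mean was 1304 CPM, that of cortex 1397 and that of hippocampus 1523, now the highest. Without cortex 3, hippocampus 3 and hippocampus 4 the cortex mean was 1975 CPM and the hippocampus mean 1446 CPM. Sample titles carry a numeric code, used below as a block. Within the code shared by cerebellum 1, cortex 1 and hippocampus 1+2, the log2 ratio of cerebellum to forebrain was -0.24 and that of cortex to hippocampus 0.27. Within the code of cerebellum 2 and hippocampus 3 the cerebellum-to-hippocampus ratio was 0.06, and within the code of the other 4 samples the cortex-to-hippocampus ratio was 0.29, all on the log2 scale. The library with conflicting labels stood at 1186 CPM, from 36 counts.

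Some other gene groups of energy supply were also highest in cortex 2 on library totals, and others were not. In cortex 2 the 86 ribosomal protein rows summed to 1470 CPM, inside their range of 1009 to 1682 CPM over the 9 samples. The 16 glycolysis genes summed to 3281 CPM in cortex 2, their highest value, against 849 to 2044 CPM elsewhere. The 17 genes of the citric acid cycle and pyruvate dehydrogenase summed to 1846 CPM there, also their highest value, against 622 to 1660 CPM elsewhere. The 10 mitochondrial carriers and porins summed to 1165 CPM there, again their highest value, against 450.5 to 976.5 CPM elsewhere. The 40 assembly factors of the respiratory chain summed to 412 CPM in cortex 2, inside their range of 325 to 756 CPM. The 15 regulators of mitochondrial gene expression summed to 501.9 CPM there, their lowest value, against up to 957 CPM elsewhere. The 4 complex II genes summed to 251 CPM there, below 371.6 CPM in hippocampus 5. With the TMM factors cortex 2 stayed the highest for glycolysis (2633 CPM) and the citric acid cycle (1482 CPM), but for carriers and porins hippocampus 3 was highest (1032 CPM, against 935 in cortex 2). Whether these levels and the sum over respiratory subunits in cortex 2 have a common source was not tested.

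The complexes differed in which samples carried them. Complex I, which takes electrons from NADH, was the most even, at 450.5 and 461 CPM in cerebellum, at 423.2, 699.1 and 420.2 in cortex and at 368.4, 409.1, 455.7 and 603.8 in hippocampus. Cortex 2 and hippocampus 5 were high on library totals, and with the TMM factors hippocampus 3 was highest at 635.1 CPM. The regions overlapped on both scales. Complex V was at 408.6 and 567.4 CPM in cerebellum, at 651, 1040 and 168.1 in cortex and at 514.2, 519.9, 455.7 and 510.9 in hippocampus. Its highest and lowest samples were both cortex, cortex 2 and cortex 3, and on library totals the other 7 lay between 408.6 and 651 CPM. With the TMM factors cortex 2 (834.7 CPM) and cortex 3 (172.6) remained the extremes. On that scale the other 7 ran from 388.8 CPM in hippocampus 5 to 807 in hippocampus 3, close to cortex 2.

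Complex IV, cytochrome c oxidase, which reduces oxygen, was at 125.7 and 192.5 CPM in cerebellum. It was at 227.9, 466.1 and 336.2 CPM in cortex, and at 207.2, 187.5, 227.9 and 185.8 CPM in hippocampus. Its cortex mean was 343.4 ± 119.3 CPM (SD, n = 3), above 202.1 ± 19.7 in hippocampus (n = 4) and 159.1 ± 47.2 in cerebellum (n = 2). The lowest cortex sample equalled the highest hippocampus sample at 227.9 CPM, and both cerebellum samples lay below every cortex sample. This held on library totals only: with the TMM factors cortex 1 was at 180.6 CPM, below cerebellum 2 at 195.9 and hippocampus 3 and 4 at 291.1 and 294.6. The value of cortex 3 rests on 4 counts, 2 of Cox6b1 and 2 of Cox7b2. No p is given for a sum over members. Part of the cortex level was Cox6b1, described below. Complex III, which passes electrons to cytochrome c, was at 146.7 and 157.1 CPM in cerebellum, at 227.9, 179.3 and 84.05 in cortex and at 138.1, 136.4, 45.57 and 139.3 in hippocampus. The lowest values, in cortex 3 and hippocampus 4, rest on 1 count each, and the regions overlapped.

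**Figure D2:**
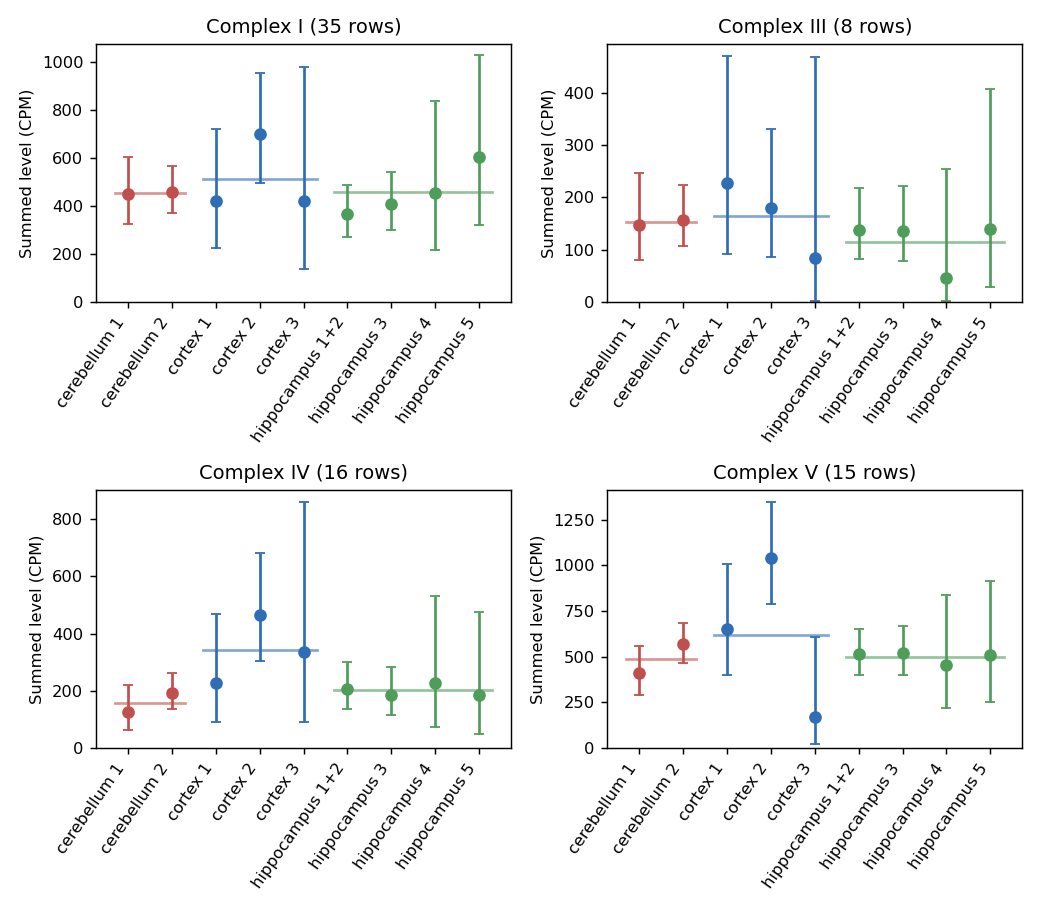
Summed level in CPM (vertical axes) of the subunits of complexes I, III, IV and V in each of the 9 samples, with exact 95% intervals as bars and region means as horizontal lines. On library totals complex IV is at 227.9 to 466.1 CPM in cortex and at 125.7 and 192.5 CPM in cerebellum, while complex V has both its extremes, 1040 and 168.1 CPM, in cortex.

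Whether a member was seen at all followed depth. At least 1 count was found for 52 and 67 of the 78 rows in cerebellum, for 25, 43 and 9 in cortex, and for 56, 65, 18 and 23 in hippocampus. Brought to the lowest total of 11898 counts by the hypergeometric formula, 11.56 and 13.23 members would be expected in cerebellum, 13.1, 18.27 and 9 in cortex, and 12.23, 13.92, 10.92 and 14.84 in hippocampus. Cortex 2 was again the highest and cortex 3 the lowest. The share of members seen was 55.1% in cortex 2, against 36.5% of all rows, but 11.5% in cortex 3, against 23% of all rows, and 23.1% in hippocampus 4, against 35.9%. Only Atp5b and Ndufv2 had a count in all 9 samples.

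Atp5b encodes the catalytic beta subunit of the ATP synthase and was the member of largest count, with 120 counts, more than 97% of all rows. Its gene lies at chr10:128083273-128090391 on the plus strand (GRCm38). Atp5b was at 178.1 and 152 CPM in cerebellum, at 227.9, 412.3 and 84.05 in cortex and at 145.8, 51.14, 227.9 and 232.2 in hippocampus. Cortex 2 was the highest and hippocampus 3 the lowest sample, and both cerebellum values lay inside the forebrain range. The cerebellum mean was 165 ± 18.5 CPM (SD, n = 2), the cortex mean 241.4 ± 164.5 (n = 3) and the hippocampus mean 164.3 ± 85.2 (n = 4). The quasi-likelihood fit of edgeR over all 9 samples had the title code as a block. In it the Atp5b difference, cerebellum minus forebrain, was 0.39 on the log2 scale (SE 0.59, 95% interval -0.76 to 1.54, adjusted p = 0.855). The code of cortex 2, cortex 3, hippocampus 4 and hippocampus 5 holds no cerebellum sample, so the fit compares cerebellum with forebrain mainly within the other codes. On library totals the forebrain mean was 197.3 CPM, above the cerebellum mean. Cortex minus hippocampus was 0.35 (SE 0.58, interval -0.78 to 1.47, adjusted p = 0.999 in edgeR). Without the title code as a block, the cerebellum-minus-forebrain value turned to -0.17, and without cortex 2 the cortex-minus-hippocampus value turned to -0.05, so the direction was not fixed in either comparison.

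Atp5a1 encodes the alpha subunit, which alternates with beta in the catalytic ring, and had 86 counts. It was at 94.29 and 126.7 CPM in cerebellum, at 195.3, 286.8 and 0 in cortex and at 107.4, 76.71, 136.7 and 139.3 in hippocampus. As with Atp5b, cortex 2 was highest. Cortex 3 had no count, which at its depth allows up to 252.1 CPM, and the regions overlapped. The log2 difference in edgeR was -0.29 for cerebellum minus forebrain (SE 0.68, interval -1.62 to 1.04, adjusted p = 0.929) and 0.49 for cortex minus hippocampus (SE 0.69, interval -0.86 to 1.84, adjusted p = 0.999). The first turned to 0.05 without cerebellum 1. The exons of Atp5a1 overlap those of Haus1 on the opposite strand, and since the use of strand in counting is not given, counts of such a pair cannot be told apart.

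These were the only members with enough counts for the main test, which covered 1720 rows. Neither was called at an adjusted p under 0.05 in edgeR in any of the 4 comparisons, and neither had an unadjusted p under 0.05. DESeq2 also called neither. Over all rows tested, 7.67% were called between cerebellum and forebrain, 0% between cortex and hippocampus, 4.59% between cerebellum and cortex and 6.4% between cerebellum and hippocampus. The counts of calls among all rows depended on which samples were kept. The 132 calls between cerebellum and forebrain became 15 without cortex 1, 105 without cortex 2 and 176 without cortex 3. They became 81 without hippocampus 1+2 and 97 without hippocampus 3. Leaving out a cerebellum sample leaves 1 in that region, so those counts are not compared. Cerebellum minus cortex was 0.22 for Atp5b (SE 0.72, adjusted p = 0.969 in edgeR) and -0.53 for Atp5a1 (SE 0.85, adjusted p = 0.918). Cerebellum minus hippocampus was 0.56 for Atp5b (SE 0.58, adjusted p = 0.715 in edgeR) and -0.04 for Atp5a1 (SE 0.66, adjusted p = 0.995). Atp5b turned to -0.51 in the first of these without the block, and Atp5a1 to 0.23 in the second on library totals. The comparisons share samples and are not independent. The intervals of both genes reach past a 2-fold difference in at least 1 direction, so a difference of that size in that direction was not excluded.

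With a lower filter of at least 3 counts over all samples, 70 members were in the fit of 24615 rows. In edgeR 0 of the 70 were called in any comparison. Of all 24615 rows it called 1 between cerebellum and forebrain and 0 in every other comparison, so 0 of 70 is near the share of all rows. In addition, 0 of the 70 had an unadjusted p under 0.05 in any comparison. The share of all rows under that value was 1.71% for cerebellum against forebrain and 1.86% for cortex against hippocampus. It was 1.77% for cerebellum against cortex and 1.47% for cerebellum against hippocampus. At these counts such shares lie below the nominal level, so the fit has little power for rows of few counts. The median log2 difference, cerebellum minus forebrain, was 0.30 over the members and 0.39 over all rows in this fit, with 42 members above 0 and 28 below. For cortex minus hippocampus the medians were -0.26 and -0.72, with 31 members above 0 and 39 below. By complex, the medians of cerebellum minus forebrain were 0.58 for the 31 complex I rows, 0.10 for the 7 of complex III, -0.11 for the 13 of complex IV and 0.07 for the 15 of complex V. The smallest unadjusted p of cerebellum against forebrain was 0.0815 in edgeR (adjusted p = 1), for Ndufv3, a complex I subunit, at 3.41 on the log2 scale. Ndufv3, named after its values were seen, had 8 counts in all and was at 20.95 and 20.27 CPM in cerebellum and at 0 in 5 of the 7 forebrain samples, with 8.524 CPM in hippocampus 3 and 45.57 in hippocampus 4, the highest of the 9 samples.

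**Figure D3:**
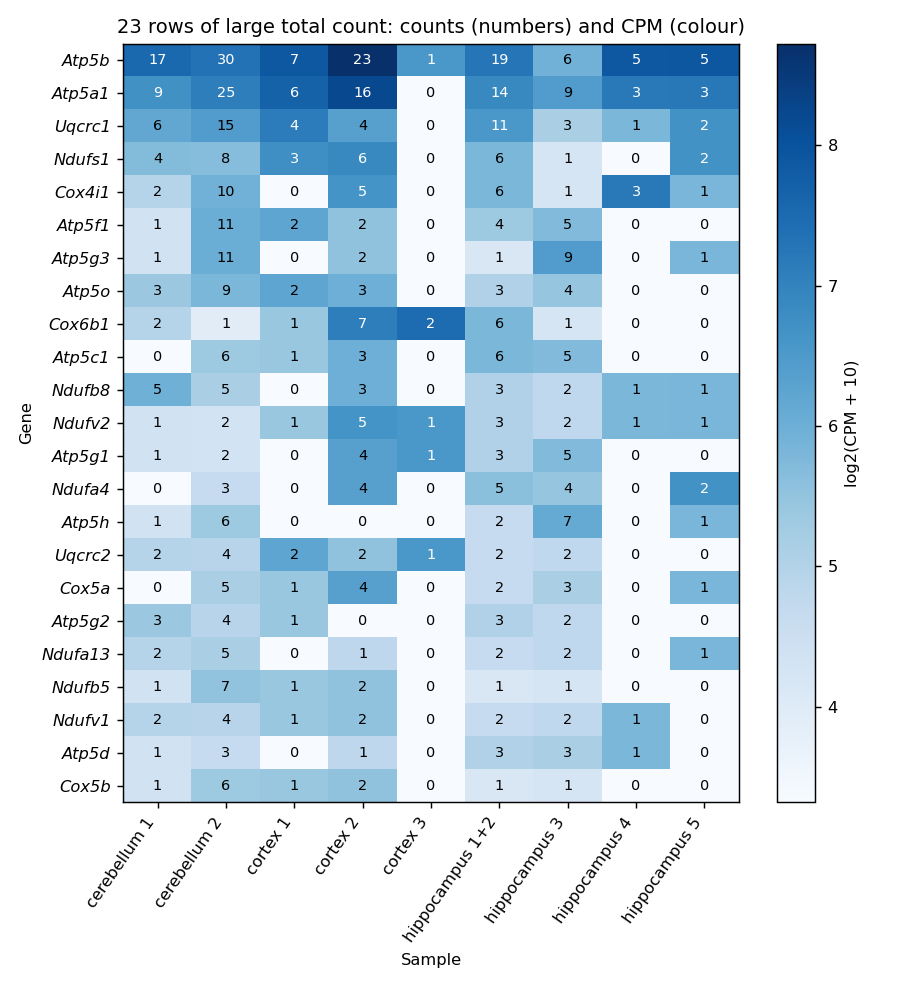
Counts (numbers in cells) and level as log2(CPM + 10) (colour) of 23 members with a large total count (rows) in the 9 samples (columns). Atp5b runs from 1 to 30 counts and Atp5a1 from 0 to 25, while most other cells hold fewer than 10 counts and the column of cortex 3 is nearly empty.

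The other ATP synthase genes among the 12 of largest count encode stalk and membrane parts: Atp5f1 (27 counts) the peripheral stalk subunit b, Atp5o (24) the subunit that joins the stalk to the catalytic head, Atp5c1 (21) the rotating gamma subunit, and Atp5g3 (26) subunit c of the membrane ring. Atp5o was at 31.43 and 45.6 CPM in cerebellum, at 65.1, 53.78 and 0 in cortex and at 23.02, 34.09, 0 and 0 in hippocampus. The 3 samples at 0 were the 3 shallowest. Atp5f1 and Atp5c1 were likewise at 0 in cortex 3, hippocampus 4 and hippocampus 5, and their remaining values ran from 10.48 to 65.1 CPM and from 0 to 53.78 CPM. Atp5h, also named after its values were seen, encodes peripheral stalk subunit d and had no count in any cortex sample and 17 elsewhere, with 7 of them in hippocampus 3. Its edgeR difference in the low-filter fit, cortex minus hippocampus, was -3.31 on the log2 scale (SE 2.16, unadjusted p = 0.125, adjusted p = 1).

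Subunit c is encoded by 3 genes, Atp5g1, Atp5g2 and Atp5g3, whose mature proteins are alike although their coding sequences differ. The last 120 bases of the coding sequence of each, from the GENCODE M21 transcripts (GRCm38), are shown because they hold the differences by which the 3 genes can be told from each other. Capitals mark positions where the 3 sequences are not all the same. Atp5g1 lies at chr11:96068852-96075670, Atp5g2 at chr15:102662864-102672352 and Atp5g3 at chr2:73908447-73911326, all on the minus strand, and the sequences run 5′ to 3′ on the coding strand.
Atp5g1: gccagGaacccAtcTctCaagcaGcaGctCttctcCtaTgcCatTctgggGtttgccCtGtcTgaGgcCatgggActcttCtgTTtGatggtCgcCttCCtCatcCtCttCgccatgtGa
Atp5g2: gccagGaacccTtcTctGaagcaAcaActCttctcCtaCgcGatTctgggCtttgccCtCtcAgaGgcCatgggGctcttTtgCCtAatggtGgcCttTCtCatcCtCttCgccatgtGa
Atp5g3: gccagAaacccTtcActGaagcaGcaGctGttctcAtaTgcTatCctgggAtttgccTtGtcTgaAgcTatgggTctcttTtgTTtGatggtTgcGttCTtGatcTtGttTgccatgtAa

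Over these bases Atp5g1 and Atp5g2 were identical at 104 of 120 positions (86.67%), Atp5g1 and Atp5g3 at 98 (81.67%) and Atp5g2 and Atp5g3 at 92 (76.67%). Atp5g1 also has 1 and Atp5g2 has 2 near-identical pseudogene copies, so their totals are uncertain. The longest run shared over the whole coding sequence was 21 bases for Atp5g1 and Atp5g2, 11 for Atp5g1 and Atp5g3 and 8 for Atp5g2 and Atp5g3. Totals were 18 counts for Atp5g1, 14 for Atp5g2 and 26 for Atp5g3. Atp5g1 was at 10.48 and 10.13 CPM in cerebellum, at 0, 71.71 and 84.05 in cortex and at 23.02, 42.62, 0 and 0 in hippocampus. Atp5g2 was at 31.43 and 20.27 CPM in cerebellum, at 32.55, 0 and 0 in cortex and at 23.02, 17.05, 0 and 0 in hippocampus. Atp5g3 was at 10.48 and 55.73 CPM in cerebellum, at 0, 35.85 and 0 in cortex and at 7.674, 76.71, 0 and 46.44 in hippocampus. Each of the 3 copies thus had its highest level in a different sample, but on 1 to 11 counts per sample the regions overlapped for every copy.

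In complex I, Ndufs1 encodes the large iron-sulfur subunit of the matrix arm. Ndufs1 (32 counts, chr1:63143596-63176833, minus strand), was at 41.91 and 40.53 CPM in cerebellum, at 97.65, 107.6 and 0 in cortex and at 46.05, 8.524, 0 and 92.89 in hippocampus. Cortex 3 and hippocampus 4 had no count, and cerebellum lay inside the forebrain range. Ndufb8, an accessory subunit of the membrane arm (21 counts), was at 52.38 and 25.33 CPM in cerebellum, at 0, 53.78 and 0 in cortex and at 23.02, 17.05, 45.57 and 46.44 in hippocampus, again with overlap. The exons of Ndufs1 overlap those of Eef1b2 and Ino80dos on the opposite strand. Those of Ndufb8 overlap Gm20538 on the same strand, so the counts of both genes are uncertain.

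Ndufv2, for an iron-sulfur subunit beside the NADH site, was at 10.48 and 10.13 CPM in cerebellum, at 32.55, 89.63 and 84.05 in cortex and at 23.02, 17.05, 45.57 and 46.44 in hippocampus. Its 2 cerebellum samples lay below all 7 forebrain samples, but on 1 and 2 counts. Ndufv2 falls outside the rule for named genes and was picked after its values were seen. In the low-filter fit of edgeR the difference, cerebellum minus forebrain, was -0.86 on the log2 scale (SE 1.25, interval -3.31 to 1.59, unadjusted p = 0.491, adjusted p = 1), so it was smaller than its error. A further 31 complex I rows had between 1 and 14 counts each.

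Uqcrc1 encodes the larger core protein of complex III and held 47 of its 105 counts (chr9:108936633-108949623, plus strand). It was at 62.86 and 75.99 CPM in cerebellum, at 130.2, 71.71 and 0 in cortex and at 84.42, 25.57, 45.57 and 92.89 in hippocampus. Cortex 1 was highest and the regions overlapped, with means of 69.4 ± 9.29 CPM (SD, n = 2), 67.3 ± 65.2 (n = 3) and 62.1 ± 31.9 (n = 4). Among the genes of complex III only Uqcrc2, for the other core protein, with 17 counts, also reached 10.

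In complex IV several subunits have a pair of genes, of which 1 form is widespread and the other is mainly used in heart, muscle, lung or testis. The widespread form had the larger count in 4 such pairs but not in the fifth. Cox4i1 had 28 counts and Cox4i2, the form best known from lung, 5. Cox6a1 had 7 and Cox6a2, the heart and muscle form, 3. Cox6b1 had 22 and Cox6b2, the testis form, 1. Cox8a had 10 and Cox8b, the muscle form, 1. Cox7b had 6 counts and Cox7b2, a testis form, 7, a pair added after its values were seen. Cox7a2 had 3 counts, and Cox7a1 had no row. Differences of this size carry wide counting error, and for the Cox6a and Cox7b pairs the counts are too few to order the genes.

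Cox4i1 (chr8:120668222-120674207, plus strand) was at 20.95 and 50.66 CPM in cerebellum, at 0, 89.63 and 0 in cortex and at 46.05, 8.524, 136.7 and 46.44 in hippocampus. Its exons overlap those of Emc8 on the opposite strand. Cox6b1, whose product sits on the outer side of the enzyme, was at 20.95 and 5.066 CPM in cerebellum, at 32.55, 125.5 and 168.1 in cortex and at 46.05, 8.524, 0 and 0 in hippocampus. The cortex mean was 108.7 ± 69.3 CPM (SD, n = 3), against 13.01 ± 11.2 in cerebellum (n = 2) and 13.6 ± 22.0 in hippocampus (n = 4). Cortex 1 lay below hippocampus 1+2, so the regions overlapped, and the 3 cortex values rest on 1, 7 and 2 counts. In the low-filter fit of edgeR cortex minus hippocampus was 1.25 on the log2 scale (SE 1.02, interval -0.74 to 3.24, unadjusted p = 0.218, adjusted p = 1).

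Read against their length, respiratory mRNAs gave more fragments than their totals convey. The transcripts of the 78 genes had a median length of 745 bases and a median coding length of 403.5, against 2638 and 1269 over the 19309 rows with a protein-coding gene model and 8167 and 5097 for the 43 known FMRP-bound mRNAs. Per kilobase of transcript, the median over members was 11.11 counts, that of 85 ribosomal protein genes of similar length (median 878 bases) was 6.338, that of all protein-coding rows 5.015 and that of the known FMRP-bound mRNAs 71.54. Pooled counts per kilobase were 13.1 for the members, 8.31 for ribosomal protein genes, 10.12 for all protein-coding rows and 91.71 for the known FMRP-bound mRNAs. The members were thus above the typical coding gene per base by median, less so when pooled, and far below mRNAs known to be bound.

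Within classes of transcript length the members had larger medians than other protein-coding rows in 5 of 6 classes. In the class from 500 up to 1000 bases, which holds 45 members, the median total was 7 counts against 3 over 1837 other rows, whose upper quartile was 5. From 1500 up to 2000 bases it was 18 counts over 10 members against 8. From 3000 up to 5000 bases the single member, Atp5g1, had 18 counts against a median of 22. Its class depends on the transcript model chosen, which has 4715 bases for a coding length of 411. The models of Atp5g2 and Atp5g3 have 731 and 723 bases. Every row of the table has at least 1 count, so genes without a fragment in any library are in neither group, and the amounts of these mRNAs in the tissues were not measured here. Across the 78 genes, the count was related to transcript length with a Spearman rho of 0.49, against 0.70 over the 19309 protein-coding rows, as a description over genes that share the same libraries. For coding length the order was the other way, with 0.57 for the members and 0.53 for all protein-coding rows. The pooled level per kilobase of the members was divided by that of all protein-coding rows. With Atp5b included, this ratio ran from 1.003 in cortex 3 and 1.073 in cerebellum 1 to 2.077 in cortex 2. The cortex 3 value rests on 12 counts. Without Atp5b the summed level fell from 1184 to 1006 CPM in cerebellum 1 and from 1009 to 924.5 CPM in cortex 3. Whether the ratio stays at or above 1 in every sample without Atp5b was not tested.

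**Figure D4:**
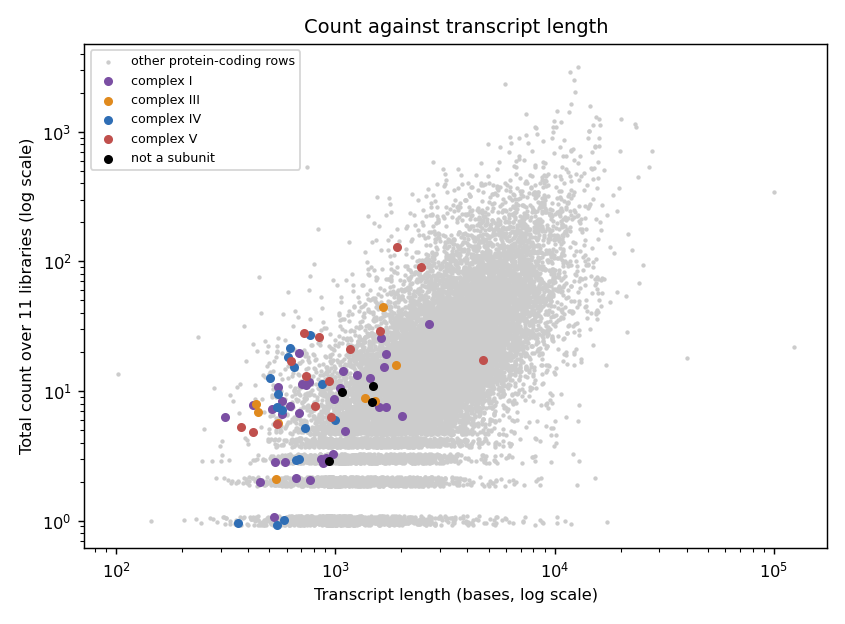
Total count over 11 libraries against transcript length in bases, both on log axes, for the members (coloured by complex) and all other protein-coding rows (grey), with points shifted slightly up or down so that equal counts can be seen. Most members lie at the short end, below 1000 bases for 53 of 78, in the upper part of the grey cloud at that length, and Atp5b at 1916 bases has the highest count of all members.

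Per kilobase, the order of the members changed. By mean CPM per kilobase over the 9 samples, Atp5b was first at 99.24, followed by Cox6b1 at 73.12, Ndufa1 at 72.19, Cox4i1 at 57.95 and Atp5a1 at 52.31. Cox6b1 and Ndufa1, a small complex I subunit, each had 2 counts in cortex 3, worth 168.1 CPM, and only 9 members had a count there. Of the 12 genes of largest total, 7 were also among the first 12 per kilobase and 9 among the first 12 by mean CPM.

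Short sequence words that have been linked to FMRP crosslinking were about as frequent in the coding sequences of the members as elsewhere, with AGGA a little rarer and TGGA a little more common. On the sense strand AGGA occurred 7.299 times per kilobase of coding sequence in the members, 8.304 in the known FMRP-bound mRNAs and 8.04 over all protein-coding rows. TGGA occurred 8.721, 7.999 and 8.409 times, ACTG 5.048, 4.672 and 5.116 times, and ACTT 3.294, 3.235 and 3.559 times. These are counts of letters, with no test, and the words can overlap each other.

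Many respiratory genes have processed pseudogenes, which could divide or lend counts. Of the 78 coding sequences 23 had a near-identical copy elsewhere in the annotated transcripts (at least 95% identity over at least 100 bases), 44 copies in all, of which 41 were pseudogenes. Atp5l had the most, with 8 pseudogenes. Only 1 of the 41 pseudogenes, a copy of Cox7c, had a row (2.44%), with 1 count. That share was 3.11% for the 578 pseudogene copies of ribosomal protein genes and 2.286% for all 10236 annotated processed pseudogenes. How fragments that match several places were counted is not given, so totals of the 23 genes are uncertain. The exons of 29 members overlap another gene, 26 of them on the opposite strand. Among the genes described above they include Atp5a1, Cox4i1, Ndufs1, Ndufb8, Atp5f1, Atp5o and Uqcrc2.

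Other genes of mitochondrial energy supply were also without a call. Complex II, which feeds electrons from succinate, had 4 genes with a row, none with enough counts for the main test. Its catalytic subunit gene Sdha averaged 61.1 ± 56.8 CPM (SD) over the 2 cerebellum samples, 103.5 ± 51.0 over the 3 of cortex and 114.6 ± 111.6 over the 4 of hippocampus. Cytochrome c (Cycs), which carries electrons from complex III to IV, had 17 counts. None of the 40 assembly factors reached the main test. Of the genes of the citric acid cycle and pyruvate dehydrogenase 2 of 17 were tested, of mitochondrial carriers and porins 2 of 10, of regulators of mitochondrial gene expression 1 of 15, and of glycolysis 7 of 16. The edgeR test called 0 of these 12 genes in any of the 4 comparisons, where the shares of all rows called (7.67%, 0%, 4.59% and 6.4%) would give less than 1 of 12. The mRNA of Ogdh, a subunit of the oxoglutarate dehydrogenase of the cycle, differed by 0.34 on the log2 scale between cerebellum and forebrain (SE 0.50, adjusted p = 0.847 in edgeR). The coactivator Ppargc1a, which drives transcription of respiratory genes, differed by 0.06 (adjusted p = 0.989). In the same comparison 5 of the 9 granule cell markers had enough counts for the test, and edgeR called all 5, higher in cerebellum. A row high in 1 region can pass the filter through that region, so this share only checks the region labels. Of the 42 tested known FMRP-bound mRNAs edgeR called 5, all lower in cerebellum, against 7.67% of all rows.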

How the data were processed

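FMRP-bound RNA fragments were counted in 11 libraries from mouse brain at postnatal day 13. The authors deposited raw fragment counts per gene symbol in a table of 30986 rows, with library totals of 11898 to 197382. The submitters' processing notes name mm10, Bowtie 0.12.7 and Picard. The counting program was not given in the sources used here, nor were the annotation, the use of strand and the treatment of duplicates. Counts were used as deposited, and CPM are counts divided by library totals.

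The members and gene lists were chosen with earlier results of these data known. Named members are those tested, the 12 of largest total count, any called, and paralogue families of 1 subunit. In other lists up to 3 genes of largest count are named, or those called. Single-gene values of a few named genes are not reported here. edgeR 4.0.16 in R 4.3.3 (quasi-likelihood, TMM, filterByExpr by region, Benjamini-Hochberg adjusted p under 0.05) was fitted to 9 samples with region and title code as terms and 4 residual degrees of freedom. Its SE is approximate, and intervals are at the 95% level. The script was tested on simulated data. What the title code means is not in the labels. Deviations from region means correlated across rows with a median r of 0.14 over 8 pairs of the same code (-0.10 to 0.52) and -0.06 over 18 other pairs. Deviations in a region sum to 0, so the cerebellum samples mirror each other and these medians are not independent. They cannot decide whether the block was needed. Alternatives used library totals, other filters, DESeq2 1.42.0, no block, separate libraries and fewer samples. Gene models, positions and sequences came from GENCODE M21 (GRCm38, the build named mm10), with 1 transcript per gene (APPRIS principal first). All 78 symbols matched, 1 through an older name. BLAST 2.17.0 found the copies.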

Additional observations from a re-analysis of the deposited data

Results flagged for a closer look

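Among 25 sums and single-gene levels checked in the 4 hippocampus samples, 6 had a sample whose distance from the others was large for the group's range (Dixon's critical value 0.829). For continuous values chance gives about 1 in 20 such groups. A gene with 1 count in 1 of 4 samples meets this criterion by construction, so that rate says nothing about the 4 single genes. Hippocampus 4 was low in complex III, at 45.57 CPM against 136.4 to 139.3 CPM in the other 3, and that value is 1 count. On library totals it was also low in complex V, at 455.7 CPM from 10 counts, against 510.9 to 519.9 CPM. This did not hold with the TMM factors. On that scale hippocampus 4 was at 589.1 CPM, above hippocampus 1+2 (506.1) and hippocampus 5 (388.8) and below hippocampus 3 (807). In the other 4 cases a gene had 1 count in 1 hippocampus sample and 0 in the rest. Cox6a1 was at 8.524 CPM and Cox8b at 8.524 CPM, both in hippocampus 3, and Cox6a2 was at 7.674 CPM and Cox6b2 at 7.674 CPM, both in hippocampus 1+2. The library whose title and tissue label disagree entered no comparison, and its members summed to 1186 CPM (36 counts, exact 95% interval 831.1 to 1642 CPM).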

How the results depend on the processing

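No member was called in any of the 4 comparisons under any of the 16 alternatives, while the calls over all rows between cerebellum and forebrain ranged from 1 to 215 against 132, between cerebellum and cortex from 0 to 142 against 79, and between cerebellum and hippocampus from 0 to 191 against 110. The absence of member calls says little about the 78 genes. Only 1 or 2 members were tested in each alternative, apart from those with a lower or no filter. The filter of 3 counts tested 70 members, and no filter tested 77. Each of those fits called 1 of all its rows between cerebellum and forebrain and 0 in the other comparisons, so a member call was unlikely in them. The adjusted p of Atp5b and Atp5a1 never went below 0.546. Directions did turn. Without the replicate block (title code) Atp5b was at -0.17 on the log2 scale for cerebellum minus forebrain and -0.51 for cerebellum minus cortex. Without hippocampus 3, hippocampus 4 and cortex 3 the latter was -0.20. Leaving out each sample in turn, Atp5b ran from -0.05 to 0.63 for cortex minus hippocampus, and Atp5a1 from -0.39 to 0.05 for cerebellum minus forebrain and from -0.17 to 0.26 for cerebellum minus hippocampus. Atp5a1 turned to 0.05 and 0.44 in these 2 comparisons with no filter, to 0.21 and 0.52 with a filter of 3 counts, and for cerebellum minus hippocampus to 0.23 on library totals, where the median of all rows also moved to 0.23. Atp5a1 was not among the rows tested in 3 of the 16 alternatives. The causes were not tested. The summed level in cerebellum was 1126 CPM without Atp5b. Leaving out each sample in turn, the sums ran from 1184 to 1398 CPM in cerebellum, 1269 to 1975 in cortex and 1263 to 1410 in hippocampus. The median number of members with a count per sample was 43, and 25 with at least 2 counts, so depth limits every single-gene statement.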
